A study of Canis lupus familiaris with 22 samples.

Results

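The genes of the matrix metalloproteinase (MMP), ADAMTS and TIMP families were compared between canine invasive urothelial carcinoma (iUC) and normal canine bladder. Members were all genes whose platform symbol was MMP, TIMP or ADAMTS followed by a number, or ADAMTSL followed by 1 digit, where that symbol was the only one of a probe set. This gave 43 of 15115 genes on the array: 21 MMP, 14 ADAMTS, 5 ADAMTSL and 3 TIMP genes, read by 78 probe sets. A further 7 dog genes that fit the rule by name (ADAMTS1, ADAMTS8, ADAMTS13, ADAMTS15, ADAMTS19, MMP12 and TIMP4) were not analysed here.

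The tested tissue was tumour from 18 pet dogs with naturally occurring, high-grade iUC, taken at cystoscopy before any therapy. The other tissue was bladder from 4 healthy, age-matched dogs without tumours. Each array held RNA from 1 dog, and no dog gave both tissues. Whole pieces of tissue were used, so fewer cells of a type and less RNA per cell cannot be told apart.

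MMPs are zinc-dependent enzymes that cut collagens, proteoglycans and other proteins of the extracellular matrix. Most are secreted as inactive proenzymes, and some are held at the cell surface. ADAMTS proteases are secreted relatives with thrombospondin repeats. Among other roles they trim procollagens and cut large proteoglycans, while the ADAMTS-like proteins keep the repeats and have lost the protease domain. TIMPs bind the active site of MMPs and block it, and TIMP3 also blocks several ADAM and ADAMTS enzymes. In carcinomas, much of the MMP and TIMP RNA is known to come from fibroblasts and leukocytes around the tumour cells.

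The deposited values were log2 values that had been centred on the median of each probe set over the 22 arrays. A value of 0 therefore means the middle of these arrays for that probe set, and no value says how strongly a gene was expressed. Because 18 of the 22 arrays were iUC, iUC values lie around 0 for most genes and the normal bladders show the distance. A gene's value was the mean over its probe sets. The 2 tissues were set against each other with limma. A call required a fold change of 2 or more and a p of at most 0.05 after Benjamini-Hochberg adjustment over all 15115 genes.

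Some arrays stood apart. In 7 iUC arrays (replicates 3, 4, 5, 6, 7, 13 and 18) the mean of 17 Tag control probe sets, which carry artificial sequences, was 0.277 to 0.460 on the centred log2 scale. It was -0.128 to 0.131 in the other 11 iUC arrays and -0.215 to -0.0768 in the normal arrays. These 7 arrays are called the high-Tag arrays. Counts of members called, together with the members whose direction or call moved, are given with and without them. All iUC arrays and normal replicate 1 shared 1 ending of the sample description, and normal replicates 2, 3 and 4 had another. The labels do not say what the ending stands for. Normal replicates 3 and 4 were close to each other, with a correlation of 0.934 across probe sets against 0.761 for the next closest pair of normal arrays. Normal replicate 1 was the least like the others, at 0.426, 0.617 and 0.565 with replicates 2, 3 and 4.

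The 2 tissues also differed in the cell types their markers stand for. Of 12 smooth muscle markers, 10 were lower in iUC, and the mean of the list was -0.710 to 1.51 in iUC and 3.06 to 4.86 in normal bladder (centred log2). Of 10 fibroblast markers, 7 were lower and 1 was higher, with list means of -0.681 to 0.642 in iUC and 0.851 to 2.12 in normal bladder. Of 12 measured urothelial markers, 9 were higher and 0 lower, with list means of -1.33 to 0.785 in iUC and -3.75 to -0.372 in normal bladder. Over all genes, 8.64% were called lower in iUC and 3.68% higher. Since the values are centred, it could not be read from them whether a marker was absent. The part of these cell types in the results that follow was not tested.

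Among the 43 genes, 4 were lower in iUC and 0 were higher. The 4 were TIMP1, MMP23, TIMP3 and MMP16, which is 9.30% of the members, against 8.64% of all genes called lower and 3.68% called higher. The share of lower calls was thus near that of the whole array. At an unadjusted limma p under 0.05, 14 members were higher and 5 lower, against 27.0% and 21.7% of all genes. With the fold threshold added the counts were 0 and 4, against 4.19% and 9.06%. An unmoderated t-test with pooled variance and the fold threshold gave the same counts of 0 and 4, with its p adjusted or not. The median log2 difference of the members was 0.12, against 0.079 for all genes, and 26 were positive and 17 negative. Only MMP23 showed no overlap between the tissues, with all iUC below all normal bladders. Of all genes, 4.47% had all iUC below all normal and 3.22% had all iUC above. Under quantile normalization 1 member was lower and 0 higher, against 2.85% and 1.95% of all genes. With each array shifted to its 75th percentile, 4 were lower and 0 higher, against 7.15% and 5.34%. Where a gene counted once any of its probe sets was called, 5 were lower and 1 higher, against 14.4% and 7.21%. The plot of log2 differences by family shows the 4 called genes at the low end, and most of the others near 0.

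**Figure D1:**
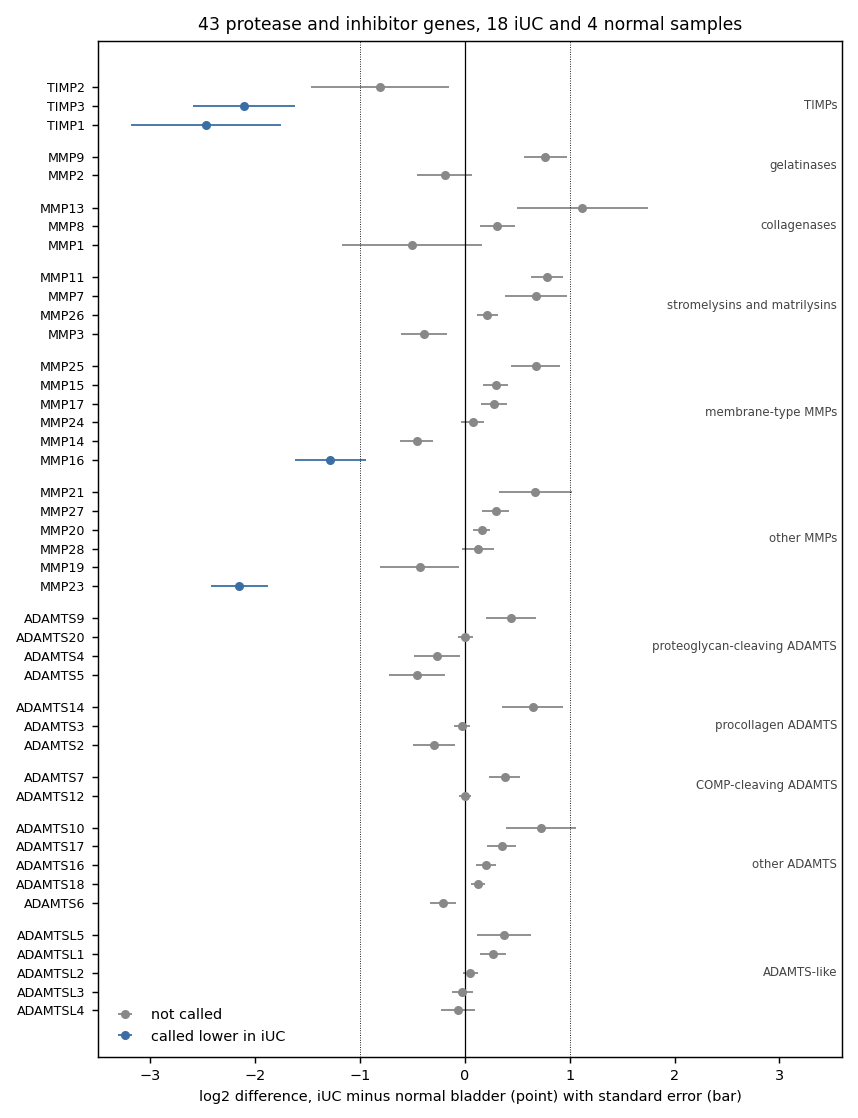
Log2 difference, iUC minus normal bladder, for each of the 43 genes, with the standard error from limma (18 iUC and 4 normal bladders). TIMP1, MMP23, TIMP3 and MMP16 are the 4 called genes, between -2.47 and -1.28, and the 39 others lie between -0.81 and 1.12.

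The inhibitors showed the largest difference of the families. TIMP1 and TIMP3 were 5.53-fold and 4.30-fold lower in iUC, while TIMP2 was not called. TIMP1, a secreted inhibitor of most soluble MMPs, had a lowest value of -2.69, a median of -0.25 and a highest of 2.51 in iUC (centred log2). In normal bladder its values were 3.93, 0.88, 2.19 and 1.55 for replicates 1 to 4. The groups overlapped, and 15 of 18 iUC lay below the lowest normal bladder. The log2 difference of TIMP1 was -2.47 ± 0.72 (SE, adjusted p = 0.0119 in limma). The call rested on normal replicate 1, the highest of the 22 arrays, since without it the log2 difference was -1.87 (adjusted p = 0.0649). It was also lost under quantile normalization (-1.64, adjusted p = 0.141) and when blocked by label ending (-4.26, adjusted p = 0.0900), which sets iUC against normal replicate 1 alone.

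TIMP3, the inhibitor that binds to the matrix itself, ran from -0.72 to 3.68 in iUC with a median of -0.11 (centred log2). It measured 2.11, 1.30, 2.73 and 2.90 in the 4 normal bladders. All but 1 iUC lay below the lowest normal bladder, and iUC replicate 11, at 3.68, lay above every normal bladder. TIMP3 had a log2 difference of -2.10 ± 0.48 (SE, adjusted p = 0.00237 in limma). Across iUC, TIMP3 did not follow the smooth muscle markers detectably: Pearson's r was 0.172 in the 7 high-Tag arrays (exact permutation p = 0.658) and 0.0361 in the other 11 (permutation p = 0.676). Spearman's rho was 0.464 (exact permutation p = 0.302) and 0.291 (permutation p = 0.382) in the same sets, and the adjusted p over 6 relations was 0.898 for both r and 0.573 for both rho. With the 2 samples farthest from the median marker level left out, r was 0.380 and 0.168. That rule kept iUC replicate 11, so its weight in r was not tested. The TIMP3 call was lost under quantile normalization (-1.31, adjusted p = 0.0652) and when blocked by label ending (-1.96, adjusted p = 0.471).

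TIMP2, which both inhibits MMPs and helps MMP14 to activate the MMP2 proenzyme, had the second widest spread of all members in iUC, with an SD of 1.33 on the log2 scale after TIMP1 at 1.37. Its iUC values ran from -2.28 to 2.89 with a median of -0.046, and the normal bladders measured 1.24, -0.24, 0.97 and 0.50 (centred log2). The iUC values covered the whole normal range. The tissues differed by -0.81 ± 0.66 (log2, SE, adjusted p = 0.328 in limma). With the high-Tag arrays alone as iUC it was -1.76 (adjusted p = 0.00725), and with the other 11 alone it was -0.20 (adjusted p = 0.820). The difference between these sets of iUC arrays was not tested. TIMP1 and TIMP3 were called lower with either set, at -2.91 and -2.31 for the high-Tag arrays and -2.18 and -1.97 for the others.

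**Figure D2:**
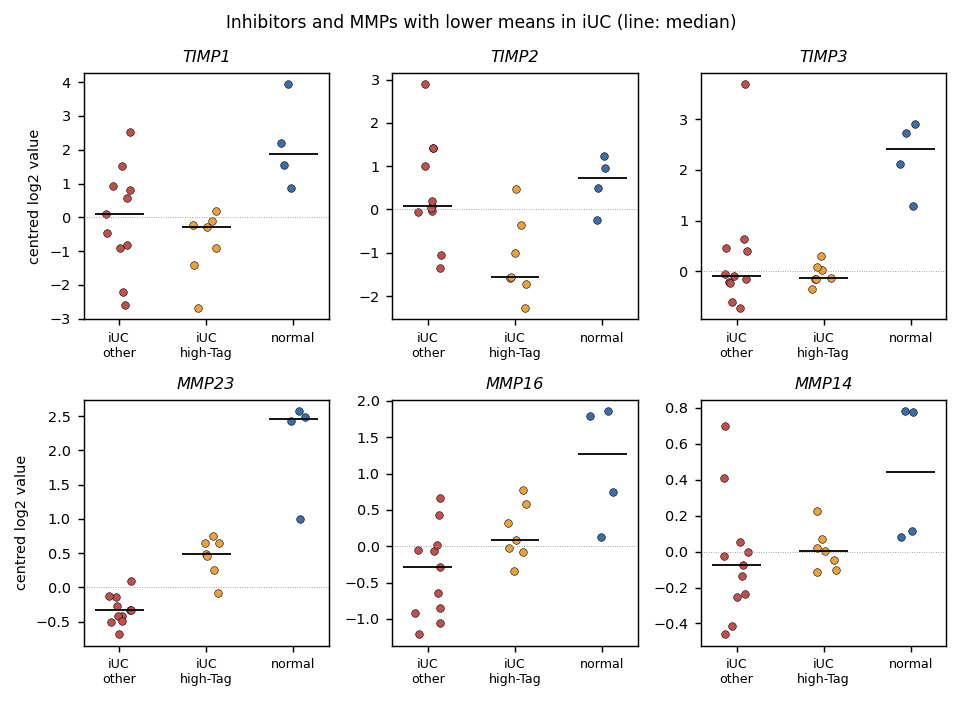
Centred log2 value in each sample of TIMP1, TIMP2, TIMP3, MMP23, MMP16 and MMP14, with iUC left of normal bladder and the high-Tag iUC arrays marked. All 18 iUC lie below the 4 normal bladders for MMP23, while for TIMP3 a single iUC, at 3.68, lies above them.

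Of the membrane-anchored MMPs, MMP23 and MMP16 were lower in iUC. MMP23 is held in the membrane by an amino-terminal segment and released from it by furin-type cleavage. Its iUC values ran from -0.69 to 0.74 with a median of -0.13, and the normal bladders measured 2.43, 1.00, 2.58 and 2.49 (centred log2). The lowest normal bladder, replicate 2, stood clear of the highest iUC by a smaller gap than the other normal bladders did. iUC was lower by a log2 difference of -2.15 ± 0.27 (SE, adjusted p = 4.75e-06 in limma), a 4.44-fold lower value. The gene was called lower in every setting tried, with log2 differences from -1.46 to -2.62. All smooth muscle list means were likewise lower in iUC than in normal bladder, and 1 probe set read MMP23.

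MMP16, the membrane-type enzyme MT3-MMP, ran from -1.21 to 0.78 in iUC with a median of -0.060, and measured 0.13, 0.75, 1.79 and 1.87 in the normal bladders (centred log2). Normal replicates 1 and 2 lay within the iUC range, and 13 of 18 iUC lay below replicate 1, the lowest normal bladder. The log2 difference was -1.28 ± 0.34 (SE, adjusted p = 0.00674 in limma). The call depended on the close pair of normal replicates: it was -1.06 without replicate 3 (adjusted p = 0.0527), -1.04 without replicate 4 (adjusted p = 0.0559) and -1.05 with the pair averaged (adjusted p = 0.0547). It was lost as well under quantile normalization (-0.93, adjusted p = 0.144), with the high-Tag arrays alone (-0.94, adjusted p = 0.0260, under the 2-fold threshold) and when blocked by label ending (-0.28, adjusted p = 0.891).

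MMP14, or MT1-MMP, the collagenase of the cell surface that activates MMP2, passed the p threshold in the same direction but not the 2-fold threshold. It ran from -0.46 to 0.70 in iUC with a median of -0.036, against 0.081, 0.78, 0.78 and 0.11 in normal bladder (centred log2). MMP14 had a log2 difference of -0.46 ± 0.16 (SE, adjusted p = 0.0313 in limma), and 15 of 18 iUC lay below the lowest normal bladder. Under quantile normalization it was -0.37 (adjusted p = 0.276), and when blocked by label ending it was -0.10 (adjusted p = 0.915). The membrane-type members MMP15, MMP17 and MMP24 had log2 differences of 0.075 to 0.29 and were not called.

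MMP11, MMP9 and MMP25 were higher in iUC at the adjusted p threshold, each by less than 2-fold. Without the fold threshold, 3 members were higher and 5 lower, against 18.2% and 17.5% of all genes. MMP11, or stromelysin-3, is known in human carcinomas as a product of fibroblasts next to tumour cells. It ran from -0.38 to 0.61 in iUC with a median of 0.11, and measured -0.37, -0.82, -0.77 and -0.81 in normal bladder (centred log2). In 17 of 18 iUC it lay above the highest normal bladder. The log2 difference was 0.78 ± 0.15 (SE, adjusted p = 5.30e-04 in limma), a 1.72-fold higher value. Fibroblast marker means ran the other way and were lower in all iUC than in all normal bladders.

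MMP9, the gelatinase stored in neutrophil granules and also made by macrophages, ran from -0.48 to 0.96 in iUC with a median of 0.084. The normal bladders measured -0.25, -0.90, -0.60 and -0.87 (centred log2), and 14 of 18 iUC lay above the highest of them. MMP9 had a log2 difference of 0.77 ± 0.21 (SE, adjusted p = 0.00744 in limma). Its 3 probe sets gave unequal differences of 1.74 ± 0.64, 0.43 ± 0.11 and 0.13 ± 0.064 (log2, SE), and the first of them alone was called (adjusted p = 0.0390). The gene mean no longer passed the p threshold under quantile normalization (0.66, adjusted p = 0.0675) or when blocked by label ending (0.36, adjusted p = 0.845). Of the 5 measured neutrophil markers, 2 were lower in iUC, against 8.64% of all genes. The list means were -1.17 to 1.12 in iUC and 0.235 to 2.45 in normal bladder. Across iUC, MMP9 and the neutrophil list had an r of 0.140 in the high-Tag arrays (exact permutation p = 0.761) and -0.0456 in the others (permutation p = 0.898), with an adjusted p of 0.898 for both. Spearman's rho was 0.25 (exact permutation p = 0.595) and -0.155 (permutation p = 0.654), with an adjusted p of 0.654 for both. With the 2 farthest samples left out, r was 0.323 and 0.322. Macrophage list means overlapped, at -0.761 to 0.661 in iUC and -0.00079 to 1.26 in normal bladder.

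MMP25, a membrane-type MMP known from human leukocytes, ran from -0.38 to 1.26 in iUC with a median of 0.023, and measured 0.041, -0.55, -0.54 and -0.72 in normal bladder (centred log2). The log2 difference was 0.67 ± 0.23 (SE, adjusted p = 0.0300 in limma), and 8 of 18 iUC lay above the highest normal bladder. With the high-Tag arrays alone as iUC it was 1.15 (adjusted p = 1.78e-04), and with the other 11 alone 0.37 (adjusted p = 0.0393).

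MMP2, the gelatinase made mainly by fibroblasts, did not differ between the tissues beyond their spread in the mean of its probe sets. It ran from -0.69 to 1.18 in iUC with a median of -0.070, against 0.63, 0.031, 0.35 and -0.0030 in normal bladder (centred log2). The log2 difference was -0.19 ± 0.26 (SE, adjusted p = 0.566 in limma), and its 3 probe sets gave -0.40, -0.30 and 0.12. The one at -0.30 passed the p threshold at under 2-fold (adjusted p = 0.0174 in limma). Its direction turned with the high-Tag arrays alone (0.16) and with the probe set of largest variance in place of the mean (0.12).

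Within iUC, MMP2 was higher in the samples with more fibroblast marker signal. Over the 11 arrays outside the high-Tag set, Pearson's r with the mean of 10 fibroblast markers was 0.843 (two-sided permutation p = 0.00144, adjusted p = 0.00864 over 6 relations). Spearman's rho was 0.809 (permutation p = 0.00398, adjusted p = 0.0239). Over the 7 high-Tag arrays r was 0.916 (two-sided exact permutation p = 0.0119, adjusted p = 0.0357), while rho was 0.75 (exact permutation p = 0.0663, adjusted p = 0.199). With the 2 samples farthest from the median marker level left out, r was 0.707 over 9 arrays (permutation p = 0.0347). It was 0.876 over 5 high-Tag arrays (exact permutation p = 0.10). Neither passed after adjustment at these smaller numbers of arrays. The points share arrays and any signal common to whole arrays. MMP9 and TIMP3 were the other genes set against a marker list.

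The collagenases MMP1, MMP8 and MMP13, which cut fibrillar collagen, were not called, and MMP1 and MMP13 spread widely. MMP13 ran from -0.68 to 4.93 in iUC with a median of 0.14, and measured 0.37, -1.07, -1.05 and -0.83 in normal bladder (centred log2). Only iUC replicates 16 and 2, at 4.93 and 1.70, exceeded 1. MMP13 had a log2 difference of 1.12 ± 0.62 (SE, adjusted p = 0.154 in limma), and without normal replicate 1 it was 1.46 (adjusted p = 0.103). MMP1 ran from -0.44 to 3.34 in iUC with a median of 0.014, and measured 4.18, 0.026, -0.29 and -0.23 in normal bladder. The highest 2 iUC, replicates 16 and 15, stood at 3.34 and 2.53, while normal replicate 1 stood above all other arrays. MMP1 had a log2 difference of -0.51 ± 0.67 (SE, adjusted p = 0.551 in limma), and without normal replicate 1 it was 0.58 (adjusted p = 0.427). MMP8, the collagenase of neutrophils, had a log2 difference of 0.31 (adjusted p = 0.149).

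The samples that were high for these genes were partly the same. The highest iUC for MMP1, MMP13, TIMP1 and TIMP2 was replicate 16 in each case, at 3.34, 4.93, 2.51 and 2.89. Normal replicate 1 was the highest normal bladder for MMP1, MMP13, TIMP1 and TIMP2, as well as for MMP3 at 1.88 and MMP19 at 2.17. It also had the highest neutrophil list mean of the normal bladders, 2.45 against 0.235 to 0.839 in the others. Its macrophage list mean was 1.26, against -0.00079 to 0.340 in the others. The part of these cells in its values was not tested. In the reference annotation, MMP13, MMP12, MMP3 and MMP1 are neighbours in that order, and MMP8, MMP27, MMP20 and MMP7 form another such run. SDs in iUC differed within each run. In the first they were 1.25 for MMP13, 0.147 for MMP3 and 1.02 for MMP1. In the second they were 0.335 for MMP8, 0.246 for MMP27, 0.125 for MMP20 and 0.592 for MMP7.

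**Figure D3:**
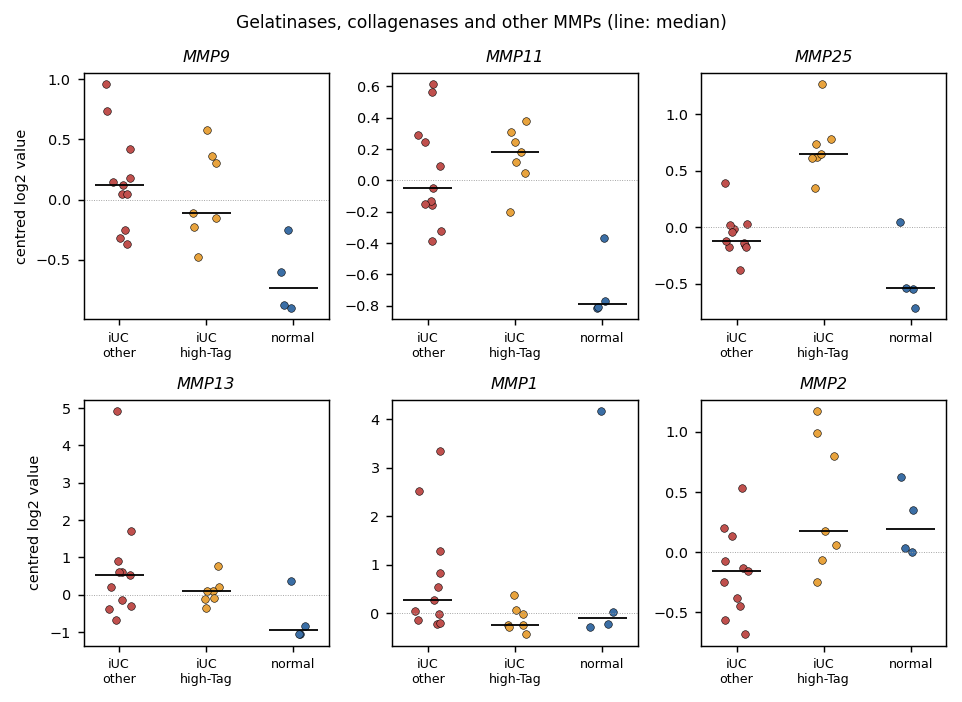
Centred log2 value in each sample of MMP9, MMP11, MMP25, MMP13, MMP1 and MMP2, with iUC left of normal bladder and the high-Tag iUC arrays marked. For MMP11, 17 of 18 iUC lie above the highest normal bladder, and for MMP1 and MMP13 a few samples, among them iUC replicate 16, lie far above the rest.

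The remaining MMPs had small differences. MMP7, or matrilysin, an epithelial MMP, had a log2 difference of 0.68 ± 0.29 (SE, adjusted p = 0.0726 in limma). MMP3, or stromelysin-1, differed by -0.39 (adjusted p = 0.162), with 3 normal bladders at -0.28, -0.051 and 0.00051 and replicate 1 at 1.88. MMP19 differed by -0.43 (adjusted p = 0.360), with 3 normal bladders between -0.085 and 0.024 and replicate 1 at 2.17. With the high-Tag arrays alone MMP19 was 0.22 (adjusted p = 0.648), and without them it was -0.85 (adjusted p = 0.0463), under 2-fold. MMP20, the enamel protease enamelysin, differed by 0.16 and MMP26 by 0.21, both not called. When blocked by label ending, where normal replicate 1 stands alone, MMP1 and MMP3 were called lower together with MMP23. At that setting 2.57% of all genes were called lower and 0.0992% higher.

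None of the 14 ADAMTS and 5 ADAMTSL genes was called in either direction. Their log2 differences ran from -0.46 to 0.73 for ADAMTS and from -0.066 to 0.37 for ADAMTSL. At an unadjusted limma p under 0.05, 5 ADAMTS genes and 1 ADAMTSL gene were higher and 0 lower, none of them by 2-fold, against 27.0% of all genes higher and 21.7% lower at that p. The unmoderated t-test called 0 as well. The lowest adjusted p were 0.0504 for ADAMTS17 (log2 difference 0.35) and 0.0505 for ADAMTS7 (0.38).

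The proteoglycan-cutting members ADAMTS4, ADAMTS5, ADAMTS9 and ADAMTS20 were split in direction. ADAMTS5, an aggrecanase that also cuts versican, had the lowest difference of the ADAMTS genes, -0.46 ± 0.27 (log2, SE, adjusted p = 0.173 in limma). It ran from -0.40 to 1.43 in iUC, against 0.11, -0.25, 0.78 and 1.38 in normal bladder. ADAMTS4 measured 1.18 in normal replicate 1 and -0.15, 0.091 and 0.24 in the other normal bladders, with a log2 difference of -0.26 (adjusted p = 0.340). ADAMTS9 differed by 0.44 (adjusted p = 0.140) and ADAMTS20 by 0.0026 (adjusted p = 0.979). With the high-Tag arrays alone as iUC, ADAMTS4 was 0.15 (adjusted p = 0.530) and ADAMTS9 0.94 (adjusted p = 2.59e-04). Without them ADAMTS4 was -0.53 (adjusted p = 0.0274), ADAMTS9 0.12 (adjusted p = 0.544) and ADAMTS5 -0.70 (adjusted p = 0.0206).

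The procollagen N-proteinases ADAMTS2, ADAMTS3 and ADAMTS14, which remove the amino propeptide of fibrillar procollagens, were not called. Their log2 differences were -0.29, -0.026 and 0.65, with adjusted p of 0.249, 0.801 and 0.0837 in limma. Both ADAMTS2 and ADAMTS14 moved with the high-Tag arrays. ADAMTS2 was 0.14 with them alone (adjusted p = 0.274) and -0.57 without them (adjusted p = 0.00326), and ADAMTS14 was 1.34 (adjusted p = 5.15e-06) and 0.21 (adjusted p = 0.142). The 3 probe sets of ADAMTS2 gave -0.55, -0.36 and 0.034 on the log2 scale. Those at -0.55 and -0.36 passed the p threshold at under 2-fold (adjusted p = 0.0169 and 0.0177 in limma). ADAMTS12, which like ADAMTS7 cuts the cartilage protein COMP, was the flattest of the members across iUC. It ran from -0.067 to 0.17 in iUC and from -0.027 to 0.056 in normal bladder (centred log2). Its log2 difference was 0.0021 ± 0.055 (SE, adjusted p = 0.978 in limma), and its sign turned in several settings.

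ADAMTS10, a protease tied to fibrillin microfibrils, had the highest difference of the ADAMTS genes, 0.73 ± 0.33 (log2, SE, adjusted p = 0.0865 in limma). ADAMTS6 had 6 probe sets, the most of any member, and they disagreed. The lowest was called at -1.79 ± 0.41 (log2, SE, adjusted p = 0.00235), and the other 5 lay between -0.23 and 0.55. The gene mean ran from -0.11 to 0.38 in iUC, against -0.00855, -0.053, 0.51 and 0.78 in normal bladder, a log2 difference of -0.21 ± 0.13 (SE, adjusted p = 0.187). Among the ADAMTS-like genes, ADAMTSL1 ran from -0.22 to 0.49 in iUC and measured -0.051, -0.25, -0.15 and -0.20 in normal bladder. Its log2 difference was 0.27 ± 0.12 (SE, adjusted p = 0.0888), and ADAMTSL5 had 0.37 (adjusted p = 0.248).

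Of the 78 probe sets, 7 were called lower and 1 higher, against 10.8% and 4.54% of all probe sets with 1 symbol. All 4 TIMP3 probe sets were lower in iUC, at -3.18, -2.71, -1.27 and -1.26 on the log2 scale, and the third of these missed the p threshold (adjusted p = 0.0508). For TIMP3 the probe sets thus shared a direction and differed in size by more than 1 log2 unit. For MMP9 and ADAMTS6 a single probe set was called and stood far from the others, although a second one of each passed the p threshold at under 2-fold (MMP9 0.43, adjusted p = 0.00501, and ADAMTS6 -0.23, adjusted p = 0.00413). A centred value does not show which probe sets were near background. TIMP1, TIMP2, MMP23 and MMP16 were read by 1 probe set each, and 22 of the 43 members were.

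**Figure D4:**
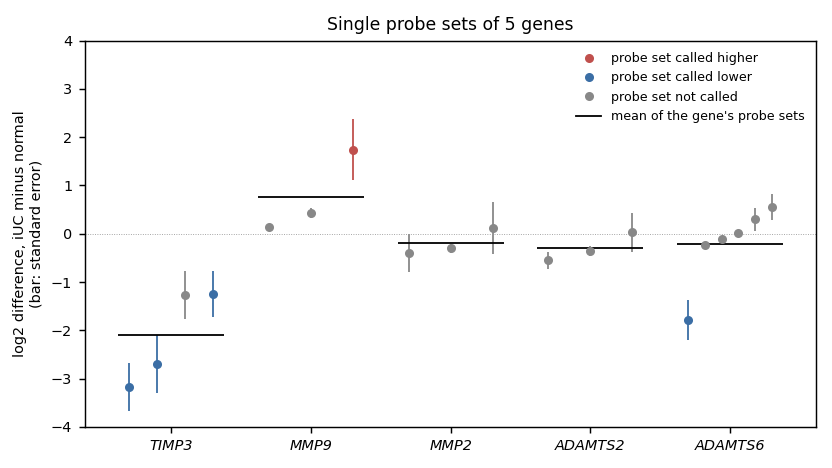
Log2 difference, iUC minus normal bladder, of each probe set of TIMP3, MMP9, MMP2, ADAMTS2 and ADAMTS6, with the limma standard error. The TIMP3 probe sets lie between -3.18 and -1.26, while 1 probe set of MMP9 (1.74) and 1 of ADAMTS6 (-1.79) stand away from the others of their gene.

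Spread among the tumours was, for the median member, near that of the whole array. The median SD over the 18 iUC was 0.293 on the log2 scale, against 0.335 over all genes. An SD under 0.3 was found for 22 members, and the share of all genes under 0.3 was not counted. The SDs ran from 0.070 for ADAMTS12 to 1.37 for TIMP1. The 5 most variable members were TIMP1, TIMP2, MMP13, MMP1 and TIMP3.

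Much of the spread of other members followed the high-Tag arrays. For 15 of the 43 members all 7 high-Tag arrays lay above all 11 other iUC arrays, and for 0 members all lay below. Over all genes these shares were 15.9% above and 12.8% below. The 15 were ADAMTSL1, ADAMTS2, ADAMTS4, ADAMTS6, ADAMTS7, ADAMTS9, ADAMTS10, ADAMTS14, MMP7, MMP8, MMP19, MMP21, MMP26, MMP27 and MMP28. ADAMTS10, for example, ran from 0.90 to 1.76 in the high-Tag arrays and from -0.25 to 0.28 in the other iUC (centred log2). MMP7 ran from 0.79 to 1.42 in the high-Tag arrays and from -0.27 to 0.19 in the other iUC. Whether the Tag signal, or the lower mean and wider spread of these arrays, had a part in these values was not tested.

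With the high-Tag arrays alone set against normal bladder, 5 members were called higher and 4 lower, against 7.16% and 17.4% of all genes. The higher ones were ADAMTS10 (1.5), MMP21 (1.48), MMP7 (1.36), ADAMTS14 (1.34) and MMP25 (1.15), and the lower ones were TIMP1, TIMP3, TIMP2 and MMP23. With the other 11 iUC alone, 0 were higher and the same 4 as in the full comparison were lower, against 5.23% and 5.96% of all genes. The 5 genes had log2 differences of 0.15 to 0.37 there, none past 2-fold. For MMP11 and MMP9 the log2 differences were close in both sets, at 0.84 and 0.70 with the high-Tag arrays alone and 0.74 and 0.81 without them. MMP14 was -0.43 and -0.48, MMP13 0.73 and 1.37, MMP1 -1.03 and -0.17, and MMP8 0.67 and 0.085 in the same order. Against the full comparison, signs turned with the high-Tag arrays alone for ADAMTS2, ADAMTS3, ADAMTS4, ADAMTS12, ADAMTSL3, ADAMTSL4, MMP2 and MMP19, and without them for MMP24, MMP28 and ADAMTS20. The difference between the sets of iUC arrays was not tested. In the heat map of all members by sample, the high-Tag columns stand out as a block across the ADAMTS and many MMP rows.

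**Figure D5:**
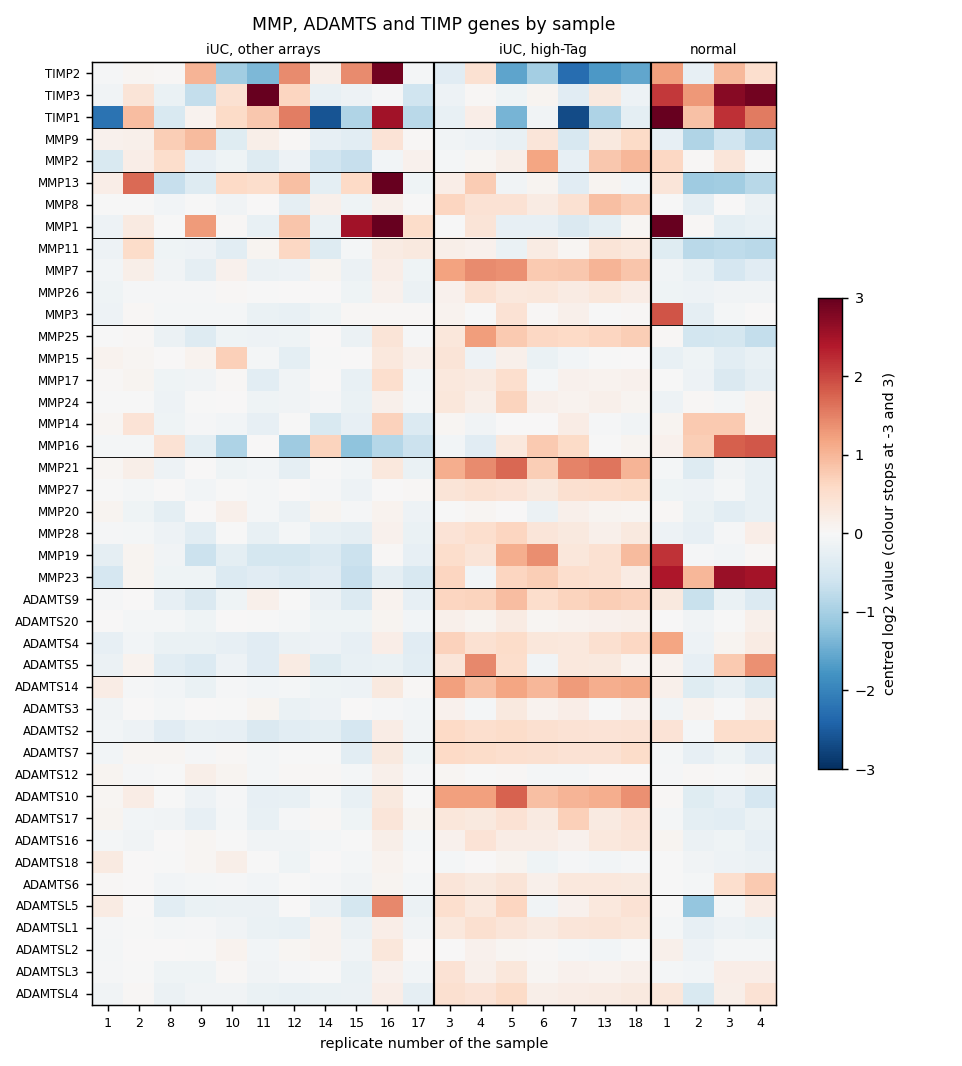
Centred log2 value of the 43 genes (rows, by family) in the 18 iUC and 4 normal bladders (columns, with the high-Tag iUC arrays together). TIMP1, TIMP3 and MMP23 are high in the normal columns, and ADAMTS10, ADAMTS14, MMP7 and MMP21 are high in the 7 high-Tag columns.

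Genes that act with these proteases were described in the same fit. Of 59 listed, 52 were measured, with a median log2 difference of -0.087. Against 3.68% higher and 8.64% lower of all genes, 3 of the 52 (5.77%) were higher in iUC, 9 (17.3%) lower and 40 not called. The higher ones were CTSD, the lysosomal protease cathepsin D (1.61 ± 0.43), PCSK6, a furin-like proprotein convertase (1.31 ± 0.25), and BSG, the MMP inducer basigin (1.25 ± 0.40; log2, SE). Their adjusted p were 0.00677, 4.57e-04 and 0.0203 in limma. CTSD ran from -1.10 to 0.96 in iUC with a median of 0.28, and measured -0.40, -0.18, -1.74 and -3.43 in normal bladder (centred log2). Without normal replicate 4, the lowest of these, 1 partner gene was called higher in place of 3. When blocked by label ending, 0 were called higher, and BSG, at 0.87 in normal replicate 1 and -1.37, -1.57 and -1.88 in the others, turned to -0.61. With the high-Tag arrays alone as iUC, CTSD (1.11, adjusted p = 0.0678) and BSG (0.79, adjusted p = 0.129) were not called. The 3 higher ones there were PCSK6, FURIN, another proprotein convertase (1.04), and MEP1A, the alpha subunit of the metalloprotease meprin (1.38).

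The substrates were the group with most calls, with a median log2 difference of -1.06. Of 17, 6 were lower (35.3%, against 8.64% of all genes) and 0 higher (against 3.68%). The fibrillar collagen chains COL1A2, COL1A1 and COL3A1 differed by -3.17 ± 0.53, -3.03 ± 0.59 and -2.35 ± 0.39 (log2, SE), with adjusted p of 1.26e-04, 5.72e-04 and 1.26e-04. FBN1, VCAN and FN1, which encode fibrillin-1, versican and fibronectin, were the other 3, at -1.79, -1.73 and -1.69. VCAN was not called with the high-Tag arrays alone (-1.34, adjusted p = 0.0725), nor FN1 without them (-1.59, adjusted p = 0.126). COL4A1, not called in the full comparison, was called lower with the high-Tag arrays alone (-1.76, adjusted p = 0.0453 in limma). The fibroblast marker means were lower in all iUC than in all normal bladders, and their part in these differences was not tested.

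Among the other partners, TFPI2, a Kunitz-type inhibitor of plasmin laid down in the matrix, was lower by -3.01 ± 0.74 (log2, SE, adjusted p = 0.00399 in limma). It ran from -2.05 to 3.31 in iUC, against 3.66, 3.06, 2.01 and 3.01 in normal bladder, and under quantile normalization its call was lost (-1.95, adjusted p = 0.122). FAP, the fibroblast surface protease, was lower at -1.74 and SERPINB2, the plasminogen activator inhibitor PAI-2, at -1.08. SERPINB2 measured 3.53 in normal replicate 1 and -0.22, 0.56 and 0.85 in the other normal bladders, and no iUC lay below the lowest of these. With the high-Tag arrays alone SERPINB2 was not called (-0.89, adjusted p = 0.217 in limma). The plasminogen system had 1 lower of 6 measured, activators and inhibitors 2 higher and 1 lower of 8, the ADAM sheddases 0 of 7, and other matrix-degrading proteases 1 higher and 1 lower of 14. Of all genes, 3.68% were called higher and 8.64% lower. Without the high-Tag arrays, ADAM9 (1.09, adjusted p = 0.00169 in limma) and ADAM10 (1.32, adjusted p = 0.00161) were called higher, against 5.23% of all genes. With those arrays alone, PLAU of the plasminogen system was called lower (-1.05, adjusted p = 0.00579 in limma), against 17.4% of all genes.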

How the data were processed

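Total RNA from 18 iUC and 4 normal bladders of different dogs was hybridized to Affymetrix Canine 2.0 arrays. The authors deposited log2 values centred on the median of each probe set (within 1e-06 of 0 over the 22 arrays) and named GeneSpring GX 12.6.1. How probe values were summarised, and how arrays were scaled to each other, was not given in the sources used here. Of 43035 probe sets, 111 controls were left out. Of the other 42924, 29254 had 1 gene symbol in the platform annotation, 439 several and 13231 none, and those with 1 symbol were averaged per gene. Dog gene symbols were checked against RefSeq names (assembly UU_Cfam_GSD_1.0), which matched 27680 of these probe sets and changed 0 symbols. No filter on level was possible on centred values. The number of arrays limits the precision, and no read depth applies.

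The fit was limma 3.58.1 in R 4.3.3 (lmFit, eBayes) on gene means, 18 iUC against 4 normal, adjusted over all genes, after it had been tested on simulated data. The labels call the samples biological replicates. Correlations used scipy 1.17.1, exact for 9 arrays or fewer and with 100000 permutations otherwise. Of 8 planned relations 6 were run, since MMP12 was not analysed here. Members and lists were chosen with earlier results of these data known. Genes given in full were those called, those held by the study's own lists (not independent evidence), the 5 of largest SD in iUC, those with a called probe set only, and up to 4 partner genes in each direction; other values were added after they had been seen. Alternatives changed the normalization, the probe set rule, an interquartile filter, array weights, the test, the thresholds, blocks and the samples. Leaving out single iUC samples was chosen after seeing the data.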

Additional observations from a re-analysis of the deposited data

Results flagged for a closer look

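Over the 4 normal bladders, 6 of 50 genes tested (43 members and 7 partner genes) had a sample whose gap to its nearest neighbour, divided by the range of the group, was above Dixon's critical value for 4 samples. About 1 in 20 genes would be picked out by chance. The rule was not run over all genes, so the count has no share of the whole array beside it. In 5 of the 6 the sample was normal replicate 1, as the highest. That array correlated at only 0.426 to 0.617 with the other normal arrays across probe sets, so such flags need not be particular to these families. MMP19 had a ratio of 0.952, with 2.17 in replicate 1 and 0.0243 in the next. MMP1 had 0.928, with 4.18 and 0.0263. MMP11 had 0.892, with -0.368 and -0.767. MMP3 had 0.872, with 1.88 and 0.000509, and MMP13 had 0.835, with 0.37 and -0.83. MMP23 had 0.904 with replicate 2 as the lowest, at 0.998 against 2.43 in the next (all centred log2). The cause was not tested.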

How the results depend on the processing

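Counts of members called higher, 0 at first, were 1 with the probe set of largest variance (MMP9), 1 with array weights (MMP13), 1 where any called probe set counted (MMP9), 3 with no fold threshold and 5 with the high-Tag arrays alone. Members called lower, 4 at first, were 1 under quantile normalization (MMP23) and 3 to 4 on leaving out single samples; MMP16 was lost without normal replicate 3 or 4 and TIMP1 without replicate 1. Without each iUC sample in turn the same 4 were lower and 0 higher.

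Partner genes called higher, 3 at first, were 6 with the probe set of largest variance, 6 with array weights, 6 with any probe set, 5 without the high-Tag arrays, 5 with no fold threshold and 0 when blocked by label ending; leaving out single samples gave 1 (without normal replicate 4) to 4. Partner genes called lower, 9 at first, were 4 under quantile normalization, 4 when blocked by label ending, 14 with no fold threshold and 14 with any probe set, and 7 to 12 on leaving out single samples. Over all genes, higher calls numbered 556 at first, 935 with the probe set of largest variance and 1065 with array weights. Their share was 3.68% at first, 7.21% with any probe set, 5.23% without the high-Tag arrays and 18.2% with no fold threshold. Lower calls were 8.64% of all genes at first, 2.85% under quantile normalization, 17.5% with no fold threshold and 14.4% with any probe set. Of the 6 relations, 2 passed at first and 0 with the 2 farthest samples left out, where fewer arrays also raise the lowest p within reach. The r for MMP2 was 0.876 and 0.707 there, against 0.916 and 0.843.

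The replicate numbers do not pair the samples, which come from different dogs: deviations of same-numbered samples correlated at -0.166, 0.055, -0.053 and 0.131. With the replicate block, 2 members (MMP23 and TIMP3) and 2 partner genes were lower and 1 partner gene higher, against 2.31% and 1.42% of all genes; TIMP1 had -2.46 (adjusted p = 0.152) and MMP16 -1.27 (adjusted p = 0.0982).

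Among the 20 named genes, signs turned for MMP2 at 0.12 (probe set of largest variance) and 0.16 (high-Tag arrays alone), for MMP1 at 0.41 (array weights) and from -0.91 to 0.58 on leaving out single samples, for ADAMTS6 at 0.11 and BSG at -0.61 (blocked by label ending), and for ADAMTS12 at -0.0058 (quantile), -0.074 (probe set of largest variance), -0.020 (high-Tag arrays alone) and from -0.012 to 0.015 on leaving out single samples. The correlation of MMP9 with neutrophil markers outside the high-Tag arrays was 0.056 with the probe set of largest variance and 0.322 with 2 samples left out, and that of TIMP3 with smooth muscle markers in the high-Tag arrays was -0.0080 under quantile normalization. The causes were not tested.

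Shifting each array to its 75th percentile moved the median log2 difference of all genes to 0.196, against 0.079, and called the same 4 members. The share of all calls that were higher was 29.9% as deposited, 42.8% after that shift and 40.6% after quantile normalization. Over 20 named genes, 644 of 698 values kept their direction and side of the threshold, 31 no longer passed, 7 newly passed and 16 turned.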
